A study of Mus musculus with 30 samples.

Results

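The genes described here encode the proteins of the mitochondrial ribosome under the symbols Mrpl (large subunit) and Mrps (small subunit). They were chosen by symbol alone: 72 such genes were on the arrays with a probe assigned to 1 symbol, and 67 of them had values on at least 24 of the 30 arrays, out of 11980 genes that met the same requirement. Each of the 67 genes had 1 probe. A test needed a value in every extract, which 64 genes had. Mrpl9, Mrps18c and Mrpl54 lacked 1 or more extracts, and Mrpl20, Mrpl21, Mrpl44, Mrpl55 and Mrpl57 had values on fewer than 24 arrays.

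The RNA came from mammary carcinomas of mice with a c-Myc transgene, in 15 extracts that were each hybridised on 2 arrays against 1 common reference RNA, once in each channel. The extracts described under tumour progression were 550-A and 561-B, those described under the transition from epithelial to mesenchymal cells were 12, and 595-A carried one description on each of its arrays. Number 579 stood on 5 extracts and the other 9 numbers on 10. The promoter of the transgene, the age and strain of the mice, the meaning of the numbers and letters, whether animals were pooled or separate, and the make-up of the reference are not stated in the labels. P-values therefore reflect only how these extracts vary, in part perhaps for technical reasons, and they leave out the spread of the reference, which is 1 RNA.

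Values are log2 ratios of an extract to the reference, averaged over its 2 arrays. Neither dye nor numerator is named, so a positive value is said to lie on the Myc side, the side on which the Myc probe lay in every extract (2.38 to 3.68), and a negative value on the opposite side. Since the mice carry a Myc transgene, positive values likely mean more RNA in the extract than in the reference, but this is no proof. "Higher" and "lower" below mean toward and away from the Myc side. The arrays held 13434 to 21991 values each. The deposited arrays were not centred on one level, and the median of all 12888 tested probes was 0.13, against 0.00 after each array's median was subtracted. Marker lists of the cell types a carcinoma can hold were read for the same comparison. Called on the Myc side were 15 of 15 epithelial probes (median 2.56), 6 of 6 endothelial (0.82), 8 of 10 macrophage (0.75), 2 of 8 adipocyte (0.18), 0 of 7 skeletal muscle (0.18), 1 of 10 fibroblast (-0.81) and 0 of 5 lymphocyte probes (0.02). On the opposite side were 6 fibroblast and 2 lymphocyte probes. Among all tested probes, 30.4% were called toward the Myc side. The adipocyte, skeletal muscle and lymphocyte medians join opposed values, so they do not show that these RNAs were unchanged. With the extract in channel 1 and in channel 2, the adipocyte median was -0.846 and 1.752. That of skeletal muscle was -0.738 and 0.915, and that of lymphocytes -1.01 and 1.133. Epithelial, endothelial and macrophage markers thus lay on the same side as most genes described below, and their part in those results was not tested.

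Mitochondrial ribosomes translate the few proteins that the mitochondrial genome encodes, which are core subunits of the respiratory chain and of ATP synthase. Every protein of these ribosomes is encoded in the nucleus, made in the cytosol and imported, while their RNA is transcribed from mitochondrial DNA. Some of the proteins descend from proteins of bacterial ribosomes and others were added during the evolution of mitochondria. Myc, which binds E-box sequences together with Max, is known to promote the transcription of many genes for ribosomes and mitochondria. The factors NRF1 and GABP, a member of the ETS family, are known to bind promoters of nuclear genes for mitochondrial proteins.

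The promoters of 5 of the genes are printed because they are the 2 highest genes against the reference (Mrpl36 and Mrpl34), the 2 lowest (Mrpl33 and Mrpl27), and Mrpl12, whose protein forms the ribosome's stalk. Sequences are from RefSeq, assembly GRCm38.p6, plus strand, from 250 bases before to 50 after the gene's start, and capitals mark a motif match. The motifs were the E-box CACGTG, the ETS-type CCGGAAG, and an NRF1-type motif of 10 bases, GCGCA and GCGC with any base between them, each searched on both strands. Mrpl36 lies at chr13:73330759-73331058 and has an E-box, Mrpl34 at chr8:71464676-71464975 and Mrpl27 at chr11:94653541-94653840 and Mrpl33 at chr5:31613701-31614000 have the ETS-type motif, and Mrpl12 at chr11:120484387-120484686 has the NRF1-type motif.
Mrpl36: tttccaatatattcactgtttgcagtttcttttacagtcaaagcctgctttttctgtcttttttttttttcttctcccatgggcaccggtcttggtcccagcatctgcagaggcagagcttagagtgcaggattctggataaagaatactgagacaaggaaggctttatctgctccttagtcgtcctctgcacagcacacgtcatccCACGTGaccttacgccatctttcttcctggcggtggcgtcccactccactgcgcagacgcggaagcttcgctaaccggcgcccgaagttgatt
Mrpl34: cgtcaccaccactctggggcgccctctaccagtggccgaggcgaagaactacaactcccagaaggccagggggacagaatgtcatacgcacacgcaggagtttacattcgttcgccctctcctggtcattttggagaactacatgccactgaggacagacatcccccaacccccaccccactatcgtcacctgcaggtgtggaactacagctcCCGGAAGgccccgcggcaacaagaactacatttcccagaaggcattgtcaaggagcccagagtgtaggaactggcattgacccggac
Mrpl12: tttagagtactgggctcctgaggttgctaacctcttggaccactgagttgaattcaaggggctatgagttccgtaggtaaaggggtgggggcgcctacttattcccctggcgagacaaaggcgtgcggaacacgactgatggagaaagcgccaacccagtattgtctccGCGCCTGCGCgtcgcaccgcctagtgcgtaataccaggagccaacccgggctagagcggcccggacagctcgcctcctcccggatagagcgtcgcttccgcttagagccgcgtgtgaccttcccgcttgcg
Mrpl27: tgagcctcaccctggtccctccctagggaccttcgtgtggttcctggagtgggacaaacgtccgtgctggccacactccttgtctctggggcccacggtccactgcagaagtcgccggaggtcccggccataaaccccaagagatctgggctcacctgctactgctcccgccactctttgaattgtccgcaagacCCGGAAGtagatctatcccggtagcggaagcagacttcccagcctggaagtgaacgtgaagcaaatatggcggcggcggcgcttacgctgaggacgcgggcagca
Mrpl33: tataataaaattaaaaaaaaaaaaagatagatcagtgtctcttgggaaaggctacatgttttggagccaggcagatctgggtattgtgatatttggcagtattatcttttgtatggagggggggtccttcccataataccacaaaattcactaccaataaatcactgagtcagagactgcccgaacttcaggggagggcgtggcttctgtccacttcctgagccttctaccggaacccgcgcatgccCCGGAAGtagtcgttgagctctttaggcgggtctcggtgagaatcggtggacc

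The first comparison asked how the carcinoma extracts differed from the reference. Most of the 64 tested genes were modestly higher than the reference. By limma with Benjamini-Hochberg adjustment over all tested probes, 51 of 64 genes (79.7%) were called on the Myc side, where 30.4% of all tested probes were, and 2 (3.12%) on the opposite side, where 16.9% were. The other 11 did not pass. The median of the 64 means was 0.47, against 0.13 for all tested probes. Of the means, 7 exceeded 1, 24 lay between 0.5 and 1, 28 between 0 and 0.5, and 5 were under 0. Means over 1 made up 10.9% of these genes and 7.25% of all tested probes. In bulk RNA, fewer cells of a type and less RNA per cell cannot be told apart.

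Subtracting each array's median lowered the median of the 64 genes to 0.34, with 42 called on the Myc side (24.2% of all tested probes were) and 3 on the opposite side (23.3% were). All 42 had been called on the values as deposited. The 9 genes that no longer passed were Mrpl1, Mrpl2, Mrpl28, Mrpl30, Mrpl42, Mrpl43, Mrpl49, Mrps9 and Mrps33, whose deposited means ran from 0.21 (Mrpl43) to 0.35 (Mrpl28). Mrpl27 was gained on the opposite side. Mrpl40, Mrps17 and Mrps31 passed in neither setting and changed side.

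**Figure D1:**
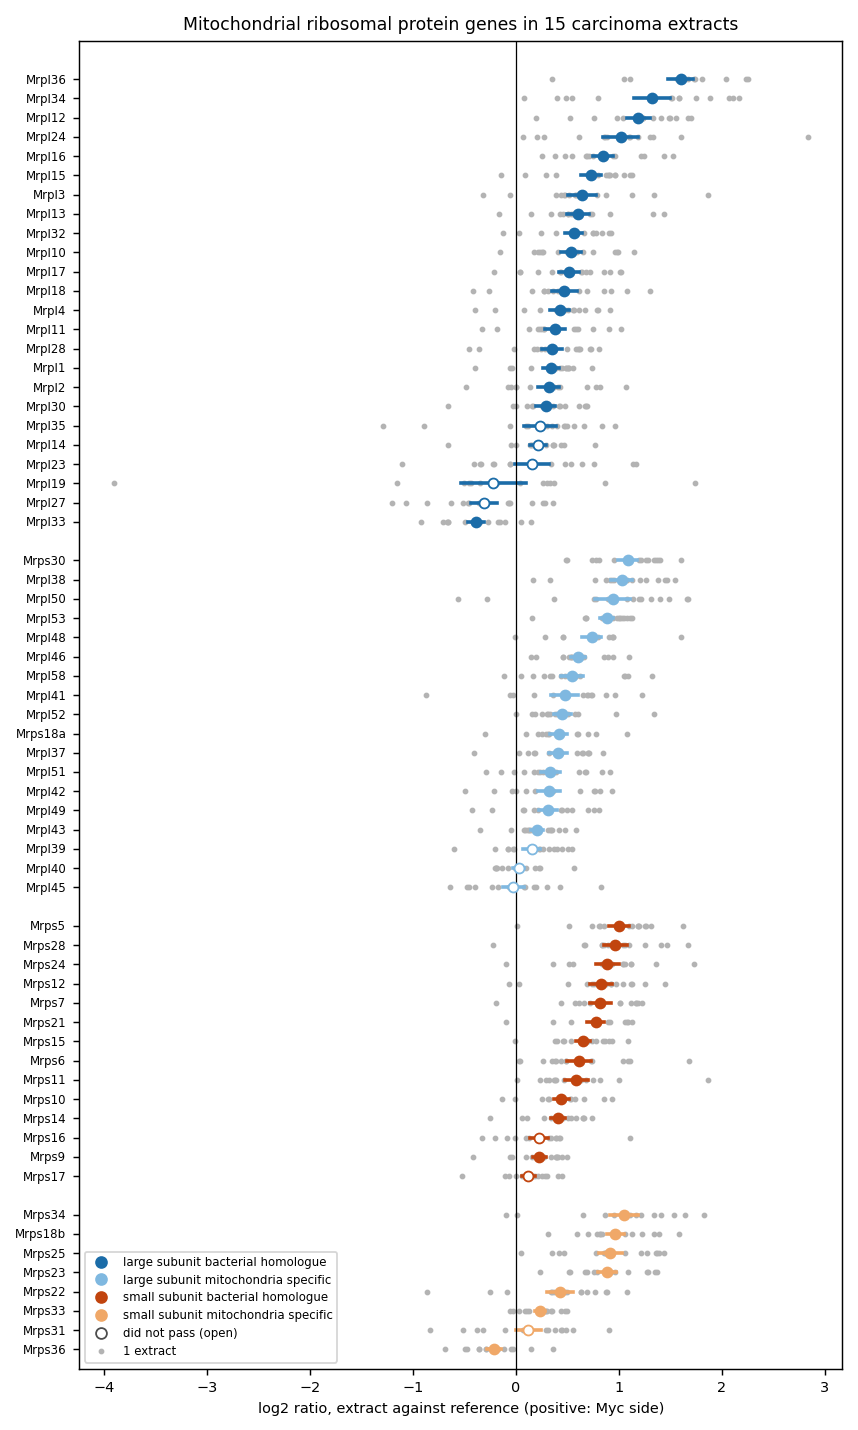
Log2 ratio of the extract to the reference for each of the 64 tested genes, positive on the Myc side. Grey points are the 15 extracts, large points the mean and bars the SE over extracts, filled where limma called the gene; 59 means lie above 0, Mrpl36 is highest at 1.60 and Mrpl33 lowest at -0.39.

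Large subunit proteins with a bacterial homologue held both ends of the range: 18 of 24 were called on the Myc side, with 1 on the opposite one, with a median of 0.45. Mrpl36, a small protein of the large subunit, was the highest. Its lowest value was 0.35 in 550-A, its median 1.64 and its highest 2.26 in 595-A, so that every extract lay on the Myc side. The mean was 1.60 ± 0.12 (SE, n = 15 extracts), a 3.03-fold ratio (limma adjusted p = 2.73e-08). Mrpl34 ran from 0.08 in 546-A, with a median of 1.51, to 2.17 in 579-A. Its extract means also lay on the Myc side throughout, with 4 of them, 546-A, 550-A, 579-D and 579-F, under 0.6. The value of 546-A joins 1.737 in channel 1 and -1.585 in channel 2, that of 579-F joins 1.121 and -0.036, and that of 550-A rests on 1 array. Mrpl34 averaged 1.32 ± 0.18 (SE, n = 15; limma adjusted p = 6.74e-06).

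Mrpl12 is the counterpart of the bacterial L7/L12 stalk protein, which contacts translation factors, and is also known to bind the mitochondrial RNA polymerase. It ran from 0.19 in 550-A to 1.70 in 579-D, with a mean of 1.19 ± 0.11 (SE; limma adjusted p = 3.13e-07). Mrpl24, which belongs to the region around the exit of the peptide tunnel, averaged 1.02 ± 0.17 (SE; limma adjusted p = 8.03e-05), with its highest value, 2.83 in 546-A, resting on 1 array. Mrpl10, which anchors the stalk, had a mean of 0.53 and passed, with 0.86 in channel 1 and 0.20 in channel 2, where it did not pass (limma adjusted p = 0.216). Mrpl11, of the neighbouring region that GTP-binding factors contact, had a mean of 0.38 and passed.

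At the other end, Mrpl33, another small protein of the large subunit, ran from -0.92 in 550-A, with a median of -0.39, to 0.14 in 579-E. Only 546-B (0.05) and 579-E were on the Myc side. Its mean was -0.39 ± 0.08 (SE, n = 15), a 1.31-fold ratio toward the opposite side (limma adjusted p = 0.00254). Mrpl27, a protein near the site where peptide bonds are formed, ran from -1.21 in 579-F, with a median of -0.36, to 0.36 in 579-D. It was on the Myc side in 4 of 15 extracts and averaged -0.31 ± 0.13 (SE; limma adjusted p = 0.057), which did not pass, and -0.44 (limma adjusted p = 0.0133) once array medians were subtracted. Mrpl19 averaged -0.22 ± 0.32 (SE; limma adjusted p = 0.568).

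Mitochondria-specific proteins of the large subunit had 15 of 18 genes called on the Myc side, with 0 on the opposite one, with a median of 0.43. The highest was Mrps30, which despite its symbol sits in the large subunit. It ran from 0.48 in 579-F to 1.61 in 561-B and averaged 1.09 ± 0.09 (SE; limma adjusted p = 1.85e-07). Mrpl38 averaged 1.03 ± 0.10 (SE; limma adjusted p = 8.86e-07). Mrps18a, a relative of Mrps18b and Mrps18c that also sits in the large subunit, averaged 0.41 and passed, and Mrpl58, a hydrolase that frees stalled peptides, averaged 0.55 and passed, though not with channel 1 alone (0.40, limma adjusted p = 0.136). The lowest were Mrpl45, which tethers the ribosome to the inner membrane, at -0.03 ± 0.10 (SE; limma adjusted p = 0.873) and Mrpl40 at 0.03 ± 0.06 (SE; limma adjusted p = 0.814). Their extracts fell on both sides.

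Among the small subunit proteins with a bacterial homologue, 12 of 14 were called on the Myc side, with 0 on the opposite one, with a median of 0.63. Mrps5 ran from 0.01 in 550-A to 1.62 in 546-B and averaged 1.00 ± 0.10 (SE; limma adjusted p = 1.05e-06). Mrps12, a protein of the decoding centre, ran from -0.06 in 546-A to 1.45 in 579-F and averaged 0.82 ± 0.11 (SE; limma adjusted p = 1.42e-05). Mrps17 was lowest, at 0.12 ± 0.06 (SE; limma adjusted p = 0.25), and Mrps16, at 0.23, did not pass either.

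Of the 8 mitochondria-specific proteins of the small subunit, 6 were called on the Myc side, with 1 on the opposite one, with a median of 0.66. Mrps34 averaged 1.05 ± 0.14 (SE; limma adjusted p = 9.1e-06) and had 14 of 15 extracts on that side. Mrps36 was on the opposite side, at -0.21 ± 0.07 (SE; limma adjusted p = 0.0495), with 2 of 15 extracts on the Myc side. Mrps36 is also known as a subunit of the oxoglutarate dehydrogenase complex of the citric acid cycle. Its call was lost by limma in 5 settings: without 550-A (adjusted p = 0.0519), without 546-A and 548-A (0.097), whose arrays held few values, with 1 mean per number (0.118), with channel 1 alone (0.591) and without a minimum of 24 arrays (0.0503). Mrps31 averaged 0.12 ± 0.12 (SE; limma adjusted p = 0.459). No test of the large against the small subunit was made; over all tested genes of each, 33 of 42 and 18 of 22 were called on the Myc side.

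Of the genes left untested, Mrpl9, which had values in 14 extracts, averaged 0.04, Mrps18c, also in 14, averaged -0.07 and Mrpl54, in 13, averaged -0.09. The 5 genes under 24 arrays had values in 12 or 13 extracts and means from -0.35 (Mrpl20) to 0.93 (Mrpl44). Their SDs, 0.87 to 1.56, were wide beside the median SD of 0.38 over the 64 tested genes.

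Other genes of mitochondrial translation were set beside these, from lists made with earlier results of these data known. The small subunit proteins that carry other symbols were called on the Myc side in 3 of 3 cases: the pentatricopeptide repeat protein gene Ptcd3 at 0.91 ± 0.14 (SE), Chchd1 at 0.64 ± 0.09 and the GTP-binding protein gene Dap3 at 0.42 ± 0.10. Of 8 translation factor genes 5 were on the Myc side, with 0 on the opposite one, with a median of 0.34. Gatc, a subunit of the enzyme that makes glutaminyl-tRNA, was highest at 1.28 ± 0.21 (SE), and its partner Gatb stood at 0.66 ± 0.09. Gfm1, an elongation factor, was lowest at 0.05 ± 0.14, and Qrsl1, the third subunit gene of the Gatc enzyme, stood at 0.13 ± 0.21. Neither passed, and both join opposed values in channel 1 and channel 2 (Gfm1 -0.231 and 0.285, Qrsl1 -0.404 and 0.537).

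Of 8 tested probes for mitochondrial tRNA synthetases, which load amino acids on tRNAs, 6 were on the Myc side, with 1 on the opposite one. Vars2 (1.29 ± 0.20, SE) and Yars2 (1.00 ± 0.17) were highest. Sars2, for the serine enzyme, was on the opposite side at -0.51 ± 0.08 (SE; limma adjusted p = 0.000322). The 2 probes of Wars2 disagreed, since one averaged 0.30 and passed and the other averaged -0.06 and did not. For ribosome assembly 7 of 14 genes were on the Myc side (30.4% of all tested probes were), led by Rbfa (1.30 ± 0.14, SE) and Noa1 (1.16 ± 0.12), and 0 on the opposite side. The lowest were Mterf3 (0.02 ± 0.19) and Mrm1 (0.12 ± 0.28). Both join opposed values in channel 1 and channel 2 (Mterf3 -0.246 and 0.318, Mrm1 -0.819 and 1.178). For upkeep and expression of mitochondrial DNA 7 of 9 genes were on the Myc side. Slirp (0.86 ± 0.33, SE) and the topoisomerase gene Top1mt (0.75 ± 0.20) were highest, and Tfam, a DNA-packaging transcription factor gene, was lowest at -0.33 ± 0.32 and did not pass, as did not Polg2 at 0.48 ± 0.33.

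Regulators were mixed. Myc averaged 3.16 ± 0.10 (SE) and its partner Max 2.10 ± 0.17, and Pprc1, a coactivator gene related to Ppargc1a, averaged 0.65 ± 0.12; these 3 of 8 passed. Nrf1 stood at -0.13 ± 0.12, Gabpa at -0.19 ± 0.25, Gabpb1 at 0.02 ± 0.11, Ppargc1a at 0.12 ± 0.32 and Esrra at -0.28 ± 0.25 (SE), and none of these 5 passed. Their averages join values on opposite sides, so they do not show that the RNAs were unchanged. In channel 1 and channel 2, Nrf1 averaged -0.916 and 0.659, Ppargc1a -1.544 and 1.783, and Esrra -1.683 and 1.124. Gabpa averaged -0.527 and 0.147, and Gabpb1 0.179 and -0.157.

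The most similar groups of genes were the oxidative phosphorylation subunits, which include the partners of the proteins that mitochondrial ribosomes make, and the ribosomal proteins of the cytosol. Of 72 oxidative phosphorylation probes 46 (63.9%) were on the Myc side, with 2 on the opposite one, with a median of 0.39. Of 69 cytosolic ribosomal protein probes 40 (58.0%) were on the Myc side, with 3 on the opposite one, with a median of 0.33. With array medians subtracted, 39 and 26 probes stayed called on the Myc side. On that scale the lists of mitochondrial translation held 3 of 3 probes on the Myc side for the other-symbol proteins, 3 of 8 (37.5%) for translation factors, 4 of 8 for tRNA synthetases, 4 of 14 (28.6%) for assembly and 6 of 9 (66.7%) for mitochondrial DNA, where 24.2% of all tested probes were called. The differences between these lists and the mitochondrial ribosomal protein genes were not tested.

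**Figure D2:**
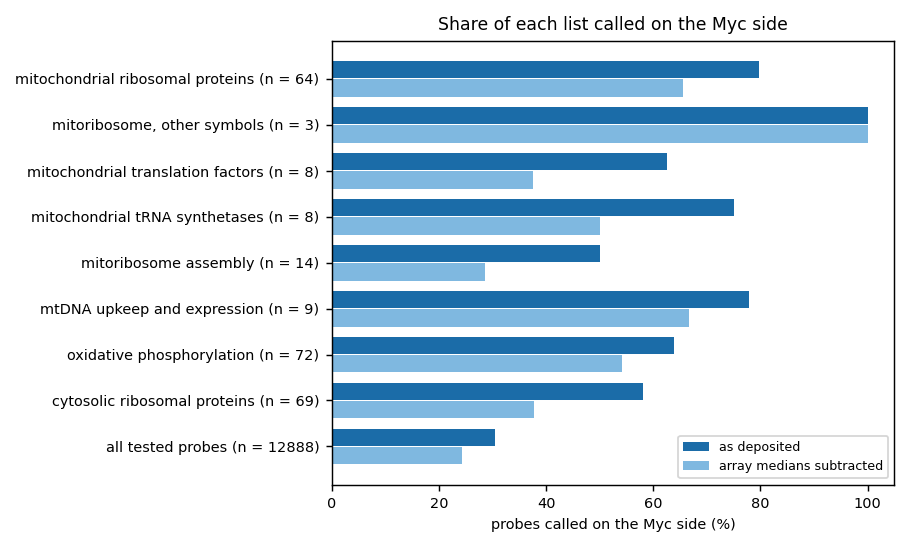
Percent of the tested probes of each list that limma called on the Myc side, as deposited (dark bars) and with array medians subtracted (light bars). The mitochondrial ribosomal proteins stand at 79.7% and 65.6%, and all tested probes at 30.4% and 24.2%.

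Each extract was measured once per channel, and the 2 orientations can be read apart. Where the extract was in channel 1, 48 of the 64 genes were called on the Myc side, where 23.9% of all tested probes were, and 3 on the opposite side, where 33.8% were. Where it was in channel 2, 39 genes were on the Myc side, where 45.5% of all tested probes were, and 3 on the opposite side, where 14.3% were. Of the 51 genes called on the Myc side, 32 passed there in both orientations, 15 in channel 1 only and 4 in channel 2 only. The 4 were Mrps11 (0.14 in channel 1 and 1.03 in channel 2), Mrpl58, Mrps22 and Mrps9, and the 15 included Mrpl10, Mrps14 (0.71 and 0.11) and Mrpl28 (0.67 and 0.03). The mean lay on the same side in both for 55 genes (85.9%), where 54.4% of all tested probes did so.

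The other 9 genes had means on opposite sides. Mrpl23, of the tunnel exit, averaged -0.96 in channel 1, with 1 of its arrays on the Myc side, and 1.26 in channel 2, with 13 on the Myc side. Mrps31 averaged -0.74 in channel 1 and 0.99 in channel 2, and Mrpl40 -0.34 and 0.39. All of these passed in both orientations (limma adjusted p at most 0.00456), so their averages near 0 join opposed values. Mrpl51 ran the other way, with 0.97 in channel 1 and -0.29 in channel 2. The remaining genes were Mrpl45, Mrps17, Mrpl19, Mrpl37 and Mrpl11. The Myc-side call of Mrpl11, Mrpl37 and Mrpl51 held over channel 1 and did not pass over channel 2, where the adjusted p was 0.785, 0.945 and 0.171 by limma. Mrpl33 was not called with channel 1 alone (-0.08, limma adjusted p = 0.498), against -0.69 in channel 2.

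**Figure D3:**
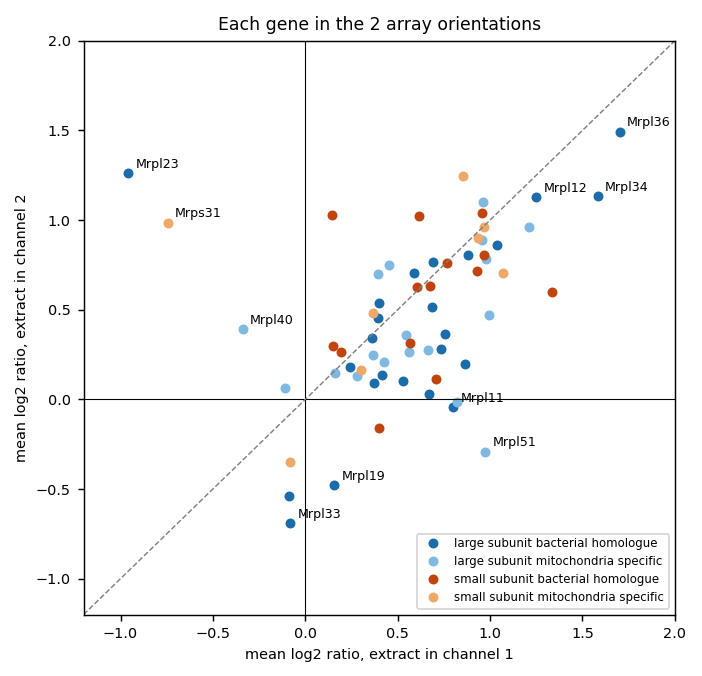
Mean log2 ratio of each of the 64 genes over arrays with the extract in channel 1 (horizontal) and in channel 2 (vertical), coloured by subunit list; the dashed line marks equal values. In 55 genes both means lie on one side, while Mrpl23 and Mrps31 stand at upper left with -0.96 and 1.26, and -0.74 and 0.99.

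A second comparison asked whether extracts differed from each other by more than the paired arrays of 1 RNA. The median SD of the mitochondrial ribosomal protein genes over extracts was 0.38, against 0.62 for all tested probes, 0.37 for the oxidative phosphorylation probes and 0.38 for the cytosolic ribosomal protein probes. Limma's F-test called 1 of the 64 genes (1.56%), where 6.73% of all tested probes, 2.78% of the oxidative phosphorylation probes and 1.45% of the cytosolic ribosomal protein probes were called. The gene was Mrpl19 (F = 7.33, adjusted p = 0.00892), with an SD of 1.22, the largest of the 64. It ran from -3.91 in 546-A, with a median of -0.18, to 1.74 in 548-A, and each of those values rests on 1 array. Over the other 13 extracts it ran from -1.16 in 550-A to 0.86 in 579-E. Without 546-A and 548-A it was not called.

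The second largest F was that of Mrpl18, a 5S-RNA-binding protein in bacteria (F = 4.04, limma adjusted p = 0.0566). Mrpl18 ran from -0.42 in 579-F, with a median of 0.41, to 1.30 in 597-B, and 550-A and 579-F were on the opposite side. It passed among probes measured on all 30 arrays (limma adjusted p = 0.0176), together with Mrpl28 (0.0259), Mrpl48 (0.034) and Mrpl4 (0.0367). In that setting 952 of 6801 probes were called, against 867 of 12888 over all tested probes. Mrpl18 alone passed without 546-A and 548-A (0.0477), with 472 probes called in all. Behind Mrpl19 the largest SDs were those of Mrpl34 (0.69), Mrpl24 (0.67) and Mrpl50 (0.66). Mrpl50 ran from -0.56 in 550-A to 1.67 in 579-A and averaged 0.94. At the other end, Mrps33 had an SD of 0.18.

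On the Myc side in all 15 extracts were 15 genes (23.4%), where 7.95% of all tested probes were. Extract 546-B had all 64 genes on the Myc side. Extract 550-A stood apart, with 20 genes on the Myc side, with 44 on the opposite one. The mean of the 64 genes was -0.18 there and 0.36 (548-A) to 0.75 (561-B) in the other 14 extracts. It was the lowest of the 15 extracts for 43 genes (17.6% of all tested probes had their lowest value there), and 62 genes were under their own mean in it. The median of all tested probes in 550-A was -0.17. With array medians subtracted, the mean of the 64 genes in 550-A was -0.01, against 0.15 (546-A) to 0.68 (579-D) elsewhere, 57 genes were under their own mean and 17 were lowest there (8.59% of all tested probes were).

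Other lists moved with this extract. In 550-A the cytosolic ribosomal protein probes averaged -0.54, oxidative phosphorylation probes -0.29 and Myc 2.38, each the lowest of the 15 extracts on the values as deposited. With array medians subtracted, the cytosolic list averaged -0.37 and the oxidative phosphorylation list -0.12 in 550-A, and both were lower in 546-A, at -0.54 and -0.22. The 10 fibroblast probes averaged 0.96 there and ranged from -2.41 (579-D) to 1.11 (546-A) over the 15 extracts, while the 15 epithelial probes averaged 2.34, within their range of 2.15 to 3.25. Macrophage probes averaged 1.02 and endothelial probes 1.11. The part of these in the level of the mitochondrial ribosomal protein genes was not tested. Without 550-A, the number called against the reference on the Myc side was 53, and all probes called on either side were 6188, against 6088 with it.

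**Figure D4:**
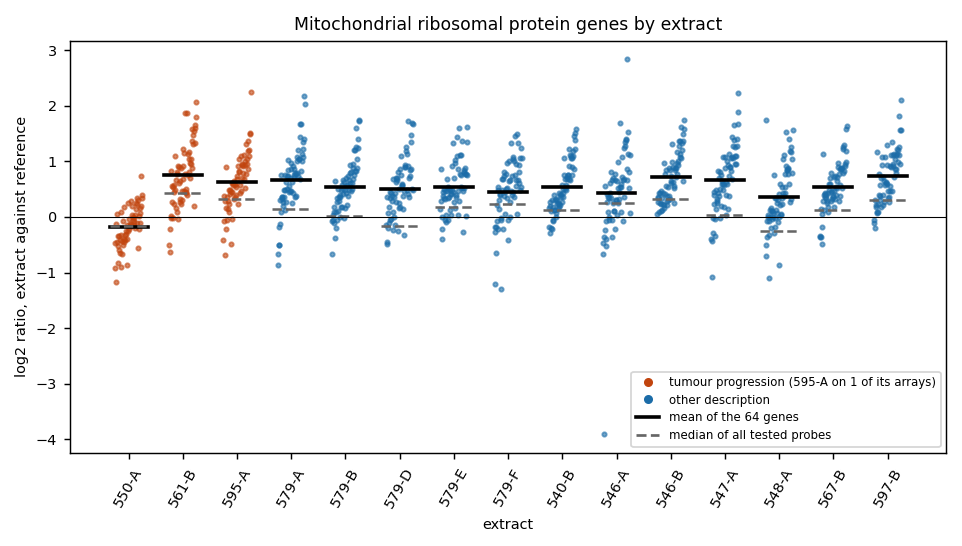
Log2 ratios of the 64 genes in each extract (points, ordered within an extract by the gene's mean), with their mean (solid line) and the median of all tested probes (dashed line). Extracts described under tumour progression are at left in red; 550-A has a mean of -0.18, and the other 14 extracts lie at 0.36 to 0.75.

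Extracts of number 579 were compared with those of the other numbers, since 579 alone stands on more than 2 extracts. Limma called 0 of the 64 genes and 0.0% of all tested probes. At an unadjusted p under 0.05 there was 1 gene, Mrpl13, and 460 probes in all (3.57%). Mrpl13, a large subunit protein gene, had 0.72, 0.74, 0.56, 1.44 and 1.33 in 579-A, B, D, E and F. The 10 extracts of the other numbers ran from -0.17 to 0.91, so the groups overlapped. The means were 0.96 ± 0.40 for 579 and 0.42 ± 0.28 for the other numbers (SD, n = 5 and 10), a difference of 0.54 ± 0.18 (SE; limma unadjusted p = 0.0192, adjusted p = 1). Next by p were Mrpl17, with a difference of 0.41 ± 0.18 (SE), and Mrpl4, with 0.40 ± 0.18. The median difference over the 64 genes was 0.03, against -0.05 over all tested probes, and its sign was not stable: it was -0.14 with channel 1, 0.19 with channel 2 and -0.05 without 550-A.

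The extracts described under tumour progression, 550-A and 561-B, were set against the 12 described under the epithelial to mesenchymal transition. Limma called 0 of the 64 genes and 0.00776% of all tested probes, which is 1 probe. At an unadjusted p under 0.05 there were 3 genes and 525 probes in all (4.07%). Mrpl1 had -0.40 in 550-A and -0.04 in 561-B, against 0.42 ± 0.20 in the 12 others (SD), a difference of -0.64 ± 0.16 (SE). Mrpl24 had 0.07 and 0.21, against 1.18 ± 0.63, and Mrpl30 had -0.66 and 0.17, against 0.37 ± 0.27. The adjusted p of each was 1 by limma. The values of Mrpl1 in both progression extracts were under the mean of the others, but its lowest value among the 12 was -0.06 in 546-A.

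The median difference of the 64 genes, progression minus the others, was -0.32, and 55 genes were lower. Over all tested probes the median was 0.03, and 6049 of 12888 were lower. On the values as deposited the 2 progression extracts lay at opposite ends: the 64 genes averaged -0.18 in 550-A and 0.75 in 561-B, the lowest and the highest of the 15 extracts. With array medians subtracted they averaged -0.01 and 0.30, both under the mean of 0.40 over the 15 extracts, and the median difference was -0.34. As deposited, without 561-B the median difference was -0.74 and 62 genes were lower, and without 550-A it was 0.18 and 25 were lower. Each of these leaves 1 extract, which is assumed to vary like the others. With 595-A placed among the progression extracts the median difference was -0.16, and it was -0.18 with channel 1 and -0.47 with channel 2. Other lists moved too: 68 of 69 cytosolic ribosomal protein probes were lower (median -0.49), as were 64 of 72 oxidative phosphorylation probes (median -0.32), while 0 of 10 fibroblast probes were lower (median 1.18). Their part in the difference was not tested.

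Of the 67 genes, 59 were found in the RefSeq promoter table by gene identifier, and 32 of these held at least 1 of the 3 motifs. The ETS-type motif was in 21 of 59 promoters (35.6%), in 17.9% of the promoters of 7775 tested genes and in 9.93% of all 27025 promoters in the table. Mrpl34, Mrpl27 and Mrpl33 hold it with its first base at -37, -55 and -3 from the start site. Genes at both ends of the range therefore held the same letters. The NRF1-type motif was in 10 (16.9%), against 10.2% and 5.19%, among them Mrpl12 and Mrpl45, which has 3 matches. The E-box was in 4 (6.78%), against 11.2% and 8.09%; these were Mrpl36, Mrpl37, Mrpl2 and Mrps18c. The median mean against the reference was 0.49 for the 20 tested genes with the ETS-type motif and 0.41 for the 37 without it. It was 0.29 for the 9 with the NRF1-type motif and 0.46 for the 48 without it, and 0.40 for the 3 with an E-box and 0.46 for the 54 without it. No test was made. A match is not a binding site, and a promoter without a match in this window may be bound elsewhere or by other letters.

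**Figure D5:**
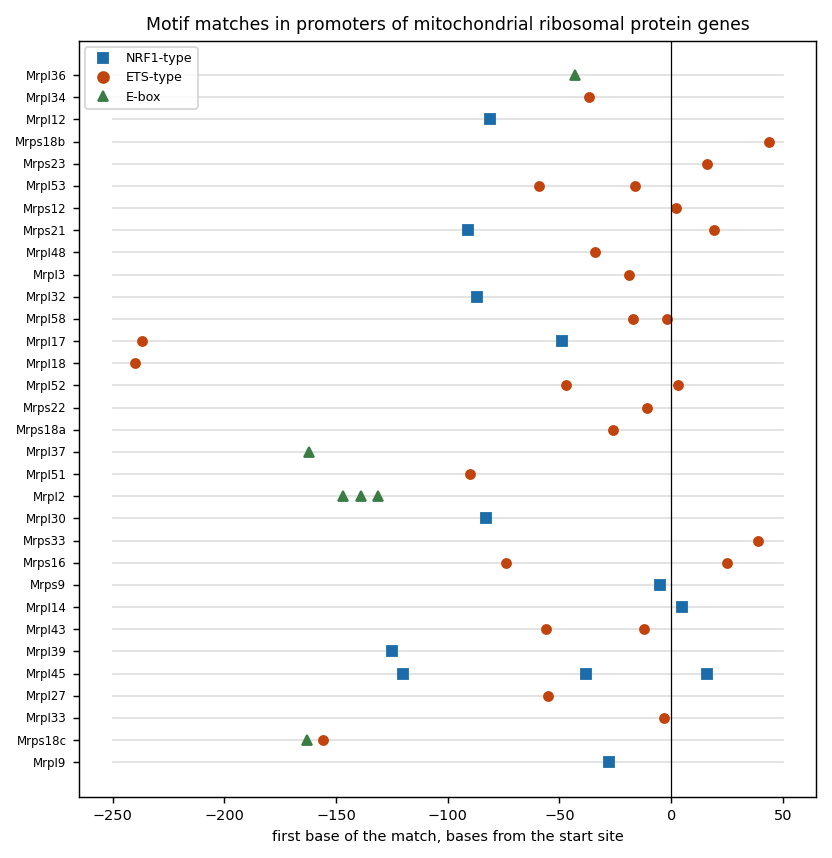
Position of each motif match, as the distance of its first base from the gene's start site, in the 32 promoters that hold one, ordered by the gene's mean against the reference from Mrpl36 at the top; Mrps18c and Mrpl9, at the bottom, were not tested. ETS-type matches (circles) are in 21 promoters, NRF1-type (squares) in 10 and the E-box (triangles) in 4.

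Some of these genes share a promoter region with a gene on the other strand. Start sites of opposite strands within 500 bases of each other were found for 17 of 59 genes (28.8%), for 16.2% of the tested genes and for 10.9% of all genes in the table. This search was added after the values were seen. Mrpl46 and Mrps11 form such a pair, 42 bases apart, and averaged 0.60 ± 0.07 and 0.59 ± 0.11 (SE), though Mrps11 did not pass with channel 1 alone (limma adjusted p = 0.575). Mrps12 and Sars2, 147 bases apart, were called on different sides, at 0.82 ± 0.11 and -0.51 ± 0.08. Mrpl40, at 0.03 ± 0.06, neighbours Hira, a histone chaperone gene, at 0.74 ± 0.21. Mrpl49, at 0.31 ± 0.09, neighbours Fau, for a cytosolic ribosomal protein, at -0.23 ± 0.09, which did not pass. The other pairs with both values were Mrpl18 with the chaperonin gene Tcp1 (0.47 and 0.40), Mrpl32 with the proteasome gene Psma2 (0.56 and 0.30) and Mrpl37 with Cyb5rl (0.40 and 0.05). Which strand a probe reads is not stated in the labels.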

How the data were processed

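The deposited table holds, per the labels, 2-channel arrays of 15 extracts against 1 reference RNA. The authors' values were read as log2 ratios, from the values themselves; background correction, normalization, filters and dyes are not given. The value 16.61, above all others, was set to missing, as were blank cells. Signs were turned on arrays with the extract in channel 2, and the 2 arrays of an extract were averaged. Probes needed values on at least 24 arrays and 1 array of every extract.

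Extract means were tested against 0 and between groups with limma (version 3.58.1, lmFit with eBayes, R version 4.3.3). Whether extracts differed was asked with its moderated F-test on single arrays, with a dye term. P-values were adjusted by Benjamini-Hochberg over 12888 probes, with a threshold of 0.05. The steps were tested on simulated data. The number of arrays limits the precision; spot intensities were not used.

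The members and lists were chosen with earlier results of these data known. Genes named are the 8 highest and 8 lowest against the reference, those called between extracts, the 4 of largest SD, the 3 of smallest p for 579 and for progression, Mrpl12 and Mrps12, and the 2 highest and lowest of each mitochondrial list; others were named for their role, their orientation or their neighbour after their values were seen. Alternatives were array medians subtracted, other filters, single orientations, extracts left out, the extract number as a random block and 1 mean per number. Gene names are from the platform's annotation, and promoters from RefSeq.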

Additional observations from a re-analysis of the deposited data

Results flagged for a closer look

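A value far from the rest of its group was found in 9 of 50 groups tested with Dixon's criterion, on the values as deposited. Chance flags about 1 in 20 groups. Several of the genes were named for their spread or p-values in these same data, so the 9 cannot be read against that rate. The groups were the 5 extracts of number 579 and the 10 of the other numbers, for each named gene and for means over genes.

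Among the 10 extracts of the other numbers, 550-A was low for the mean of the 64 genes (-0.18, the others 0.36 to 0.75). With array medians subtracted that mean was -0.006 in 550-A and 0.148 to 0.605 in the others. As deposited, 550-A was also low for Mrps5 (0.014, the others 0.82 to 1.62), Mrps17 (-0.525, the others -0.06 to 0.40), Mrpl50 (-0.562, the others 0.76 to 1.66) and Mrpl30 (-0.664, the others -0.002 to 0.69). Extract 546-A was high for Mrpl24 (2.833, the others 0.07 to 1.33) and low for Mrpl19 (-3.907, the others -1.16 to 1.74), both from 1 array. Among the 579 extracts, 579-E was low for Mrps34 (0.01, the others 1.05 to 1.34) and 579-F was high for Mrpl1 (0.735, the others 0.43 to 0.50).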

How the results depend on the processing

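Over the 23 named genes, 234 of 268 comparisons with an alternative kept the side and the call, 14 lost the call, 8 gained it and 12 changed side. Other probe filters leave a gene's own values as they are. The random block nearly does so too, since the correlation within a number was 0.0015. Those settings could hardly change a side, so the 234 overstates how much was tried. Outside these 23 genes, Mrpl11, Mrpl37 and Mrpl51 were called on the Myc side but had means on the opposite side in channel 2 (-0.044, -0.012 and -0.291). Among the 23, none of the genes that changed side was called in the first place. They were Mrps31 (-0.007 with array medians subtracted, -0.744 in channel 1), Mrps17 (-0.008 with array medians subtracted, -0.158 in channel 2), Mrpl40 (-0.103 with array medians subtracted, -0.126 with 550-A also left out, -0.339 in channel 1, -0.016 without 546-A and 548-A), Mrpl45 (0.037 with 1 mean per number, 0.061 in channel 2, 0.006 without 550-A) and Mrpl19 (0.158 in channel 1). The settings without 550-A were chosen after seeing the data. The median 579 difference, 0.03 as reported, was -0.135 in channel 1, 0.191 in channel 2 and -0.045 without 550-A, and ran from -0.014 to 0.059 over leaving out 1 extract of 579. The median progression difference, -0.32 as reported, was -0.163 with 595-A among the progression extracts, -0.179 in channel 1 and -0.467 in channel 2. The genes called on the opposite side, 2 as reported (Mrpl33 and Mrps36), were 3 with array medians subtracted and in each channel alone. With array medians subtracted and in channel 2 they were Mrpl27, Mrpl33 and Mrps36. In channel 1 they were other genes, Mrpl23, Mrpl40 and Mrps31, and neither Mrpl33 nor Mrps36 passed. The number called on the opposite side was 1 without a minimum of 24 arrays, without 546-A and 548-A, and without 550-A. The probes called in all against the reference were 4047 of the 6801 on all 30 arrays, against 6088 of 12888 as reported. Between extracts, 4 genes were called among probes on all 30 arrays and 2 without probes rich in ratios of small whole numbers. The probes called in all were 952 of 6801 and 964 in these settings, against 867 of 12888 as reported. They were 393 without a dye term and 472 without 546-A and 548-A. The median progression difference ran from -0.74 to 0.18 over leaving out 1 progression extract. The causes were not tested. With the extract number as a random block 51 genes were on the Myc side and with 1 mean per number 40. All probes called on either side were 6083 and 5429 in these settings, against 6088 as reported. No paired analysis was possible because replicate numbers name arrays of 1 extract. Ratios of small whole numbers, which dim spots could give, made up 10.9% of the values of these genes and 33.6% of all values. The second share also covers probes with values on fewer than 24 arrays, which these genes could not include, so the shares are not alike. Intensities were not used, so signal over background is unknown.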
